A study of Homo sapiens with 8 samples.

Results

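The regions described here are the accessible chromatin regions around TP63 and SOX2 on the long arm of chromosome 3, in a pair of established lines of oral squamous cell carcinoma, KOSC-2 and HSC-3. They are all merged regions that overlapped either of 2 windows of build hg19, chr3:189250000-189700000 for TP63 and chr3:181300000-181700000 for SOX2. Peaks of all 8 libraries that shared at least 1 bp had been joined into 80588 regions on chromosomes 1 to 22 and X, and 48 of these were members, 31 in the TP63 window and 17 in the SOX2 window. The windows were chosen with earlier results of these data known, and within them position alone chose the members. Within each window they are numbered along the chromosome, 1 to 31 and 1 to 17.

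The assay was ATAC-seq: Tn5 transposase cuts open DNA and leaves adapters there, so peaks of reads mark accessible sites. Peaks had been called separately for every library. The groups were KOSC-2 after 8 Gy, KOSC-2 at 0 Gy, HSC-3 after 8 Gy and HSC-3 at 0 Gy, with 2 libraries each, all frozen 24 hours after the (real or 0 Gy) exposure. KOSC-2 is labelled radiosensitive and HSC-3 is labelled radioresistant, with no genotype or selection named. With 1 line per class, radiosensitivity and any other difference between the lines cannot be told apart. Whether the libraries of a group are separate cultures is not stated, and p-values therefore reflect only the spread between these libraries, which may be technical.

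TP63 encodes p63, a relative of p53 that basal cells of stratified epithelia depend on. Its long promoter gives the TA forms, which carry a transactivation domain, and its short promoter, inside the gene, gives the delta N forms, which lack that domain and are the usual forms of squamous epithelium and squamous carcinoma. SOX2 encodes an HMG-box transcription factor of stem and progenitor cells, is a single-exon gene that lies within the long non-coding RNA gene SOX2-OT, and is often gained together with TP63 in squamous carcinomas. Open chromatin at a promoter is not a measure of transcription.

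The 4 KOSC-2 lists held 38321 to 51764 peaks and the 4 HSC-3 lists 22592 to 43176. Depth, read as a library's lowest background under any peak, was 24.3 to 64.8 reads per 10 kb in KOSC-2. In HSC-3 it was 20.2 to 42.6. The smallest number of reads at a called summit was 5 to 9. A site with fewer reads than that was not detectable, and a site with higher background around it needed more. The HSC-3 libraries 8 Gy replicate 1 and 0 Gy replicate 2 stood apart by short lists, 22592 and 23553 peaks. The counts by zone and class and the window shares are given with and without them. Enrichment is the median number of summit reads, over regions called in all 8 libraries, relative to the library's lowest background. It was 21.9 and 34.7 in these short lists, and 62.8 and 51.9 in the long HSC-3 lists (8 Gy replicate 2 and 0 Gy replicate 1). In KOSC-2 it was 25.7 to 67.3, lowest in 0 Gy replicate 1, which had the highest background. The background of HSC-3 8 Gy replicate 1 was 42.6 reads per 10 kb. Of markers of squamous and epithelial cells, a peak lay within 1 kb of the start of EPCAM in 8 of 8 libraries, of CDH1 and of KRT5 in 7 each (4 KOSC-2 and 3 HSC-3), and of KRT14 in 0. The leukocyte genes PTPRC and CD3E had a peak there in 0 libraries.

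The promoter of SOX2 is shown first, because it was the only promoter of the 3 that was open in all libraries of a line. The 250 bases before the start of SOX2 (RefSeq, GRCh38.p14, chr3:181711675-181711924, plus strand) and the 250 bases before the start of the long TP63 transcripts (chr3:189631139-189631388, plus strand) read as follows, with CG pairs in capitals. The 2 coordinates belong to GRCh38.p14, and all other positions in the text to hg19. No sequence of the short TP63 promoter is shown.
SOX2: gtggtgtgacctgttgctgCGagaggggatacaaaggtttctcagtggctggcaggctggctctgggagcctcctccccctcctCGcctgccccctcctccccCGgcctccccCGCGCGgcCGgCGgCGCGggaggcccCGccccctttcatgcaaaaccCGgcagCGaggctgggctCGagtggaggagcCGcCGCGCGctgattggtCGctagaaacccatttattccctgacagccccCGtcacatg
TP63: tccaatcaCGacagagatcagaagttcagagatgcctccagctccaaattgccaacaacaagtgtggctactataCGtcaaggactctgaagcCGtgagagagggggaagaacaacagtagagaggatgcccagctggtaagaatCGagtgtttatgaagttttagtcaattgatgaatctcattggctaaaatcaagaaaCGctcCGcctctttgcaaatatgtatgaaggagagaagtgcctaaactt

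The SOX2 stretch is GC-rich, with 68.8% G or C and 20 CG pairs, and the TP63 stretch is not, with 44% and 6. Over 35116 promoter stretches of the same length the medians were 58% and 11 pairs. The SOX2 stretch was richer in G and C than 76.6% of them and the TP63 stretch than 20.1%. The letters CCAAT on either strand, the box bound by NF-Y, occur once in the SOX2 stretch and 2 times in the TP63 stretch, and at least once in 32% of all stretches. The letters ATGCAAA on either strand, most of an octamer box, occur once in the SOX2 stretch, are not in the TP63 stretch, and are held by 3.94% of all stretches.

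SOX2 region 7 covered the SOX2 promoter (chr3:181429050-181430295). All 4 KOSC-2 libraries had a peak there, as did 2 of 4 for HSC-3, the pair with long lists. The authors' fold enrichment of its summit is relative to the background around the peak in that library. It was 7.98 and 11.8 in KOSC-2 after 8 Gy and 7.20 and 8.64 at 0 Gy (replicates 1 and 2). In HSC-3 it was 5.92 after 8 Gy (replicate 2) and 4.45 at 0 Gy (replicate 1), below every KOSC-2 value. These folds describe each list and are not scaled between lists. The background around the region was 3.05 to 5.60 times the library's lowest level in KOSC-2. In HSC-3 it was 4.11 times after 8 Gy (replicate 2) and 3.48 times at 0 Gy (replicate 1).

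Within its own list the SOX2 promoter peak was of middle to high strength in KOSC-2 and weak in HSC-3. A percentile here ranks a peak by its −log10 p among all peaks of the same library, with 100 as the strongest. The percentiles were 72.7 and 88.5 in KOSC-2 after 8 Gy and 75.9 to 77.7 in KOSC-2 at 0 Gy, against 38.5 in HSC-3 after 8 Gy and 8.64 in HSC-3 at 0 Gy. The summit was covered by 46 to 59 reads in the KOSC-2 libraries, and by 20 and 16 reads in the HSC-3 libraries that called it. All 6 summits lay before the start, at positions -206 to -68 bp relative to it.

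A test of calls over all regions could not decide the line difference at the SOX2 promoter, because no region could pass its adjustment. The smallest exact permutation p by line was 0.0286, and only 1913 of 80588 regions had a p under 0.05. An exact two-sided permutation test of the 8 calls gave p = 0.429, and 1 after Benjamini-Hochberg adjustment over 80588 regions. With every list shortened to its strongest 22504 peaks, the length of the shortest list, the region was called in 4 of 4 KOSC-2 and 0 of 4 HSC-3 libraries. The exact permutation p was then 0.0286, the smallest that 4 against 4 allows, and 0.995 after adjustment over 42673 regions, of which 1.68% showed that same pattern. With dose the calls did not change: the promoter was called in both KOSC-2 libraries and 1 HSC-3 library after 8 Gy, and in both KOSC-2 libraries and 1 HSC-3 library at 0 Gy.

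No peak was called within 1 kb of the start of the long TP63 transcripts in any of the 8 libraries. The nearest peak lay 10.4 to 67.3 kb away, depending on the library. The start sat in a region-free stretch of 52.9 kb, between TP63 regions 4 and 5 (chr3:189306710-189359571). Over all chromosomes the median distance between neighbouring regions was 15.2 kb (quartiles 6.48 and 35.2 kb). A stretch picked because it holds a given base tends to be longer than that median. The comparison therefore cannot show that the surroundings of the start were unusually empty.

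The short TP63 promoter was covered by a region called in few libraries, number 12 (chr3:189507205-189507567). Its mean percentile of 33.6 lay near the median of all regions, 32.4. It was called in 1 of 4 KOSC-2 libraries, 0 Gy replicate 2, and in 1 of 4 HSC-3 libraries, 8 Gy replicate 2. The authors' fold was 5.54 in the KOSC-2 library and 6.91 in the HSC-3 library, from 16 and 20 reads at the summit, and the percentiles were 19.6 and 47.6. Both summits fell on the same base, 189507444. The exact two-sided permutation p for its calls by line was 1.

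Just outside the 1 kb limit, region 13 (chr3:189508506-189508826) was called in KOSC-2 8 Gy replicate 1 alone, with a fold of 5.63 and 19 reads at the summit. Region 14, a further 1.26 kb on, was called in KOSC-2 0 Gy replicate 1 alone, with a fold of 4.01. The KOSC-2 library 8 Gy replicate 2 and the HSC-3 libraries 8 Gy replicate 1 and both at 0 Gy had no peak in regions 12 to 14. In lists shortened to equal length neither TP63 promoter had a peak in any library.

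**Figure D1:**
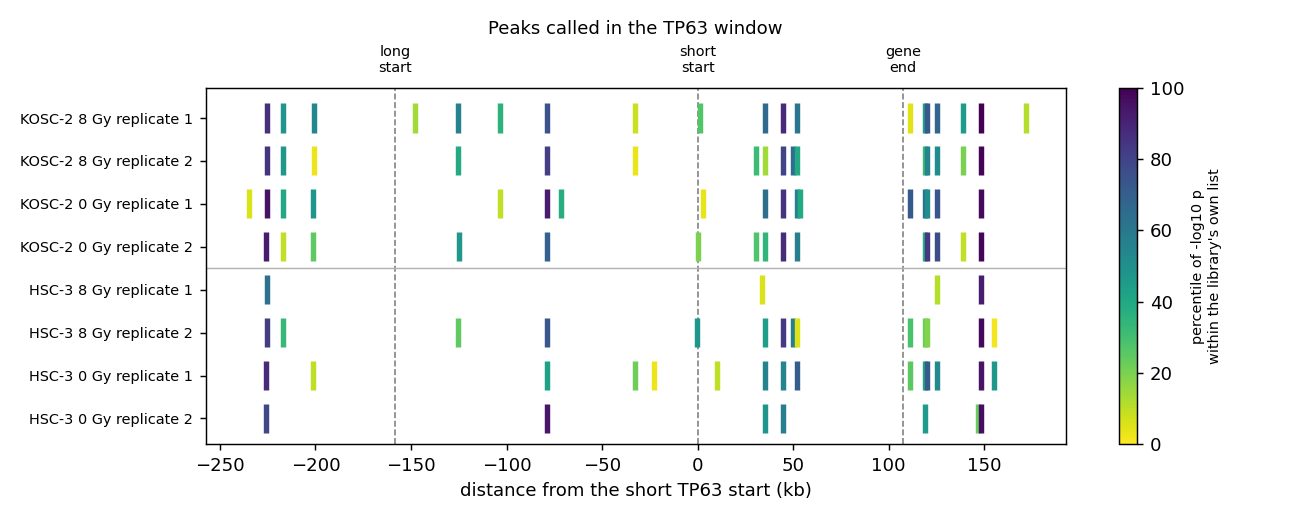
Peaks called in the TP63 window, with distance from the short TP63 start (kb) on the x axis and 1 row per library, KOSC-2 above HSC-3. Each tick is the midpoint of the strongest peak of a region in that library, coloured by its percentile within that library's list, and dashed lines mark the long start, the short start and the gene end. No tick stands at the long start, 2 stand at the short start, and the columns filled in all 8 rows are regions 2 and 29.

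The strong regions of the TP63 window lay away from both promoters. Region 29 (chr3:189655085-189656014), 40.5 kb past the end of TP63, toward the next coding gene P3H2, was called in 8 of 8 libraries. Its authors' fold was 12.1 and 12.4 in KOSC-2 after 8 Gy and 9.65 and 11.2 at 0 Gy. In HSC-3 it was 9.22 and 11.5 after 8 Gy and 10.3 and 9.82 at 0 Gy. The folds of the lines overlapped.

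Region 29 ranked at the 92.1 to 99.7 percentile of its list, with 103 to 153 reads at the summit in KOSC-2 and 45 to 84 in HSC-3. The summits of the 8 libraries fell within 225 bp. The background in the 10 kb around it, which includes the reads of the region, was 5.03 to 12.4 times the library's lowest level in KOSC-2 and 3.12 to 10.2 times in HSC-3.

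Region 2 (chr3:189281416-189282279), at -67.4 kb relative to the long start, was the other region called in 8 of 8 libraries. Its fold was 12.3 and 13.5 in KOSC-2 after 8 Gy and 13.4 and 13.8 at 0 Gy. In HSC-3 it was 8.34 and 12.1 after 8 Gy and 13.2 and 9.73 at 0 Gy. Its percentiles were 84.7 to 95.2 in KOSC-2 and 62.4 to 88.3 in HSC-3, so the lines overlapped.

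Only these 2 members were called in all 8 libraries, 2 of 31 in the TP63 window and 0 of 17 in the SOX2 window, where 15.9% of all regions were. The count depended on the short HSC-3 lists. Without the HSC-3 library 8 Gy replicate 1, 6 TP63 members and 1 SOX2 member were called in all libraries left, where 19.7% of all regions were. Without both short HSC-3 lists, a setting chosen after the data were seen, 8 TP63 members and 4 SOX2 members were, where 27.2% of all regions were. The members' share then lay near that of all regions. Members called in at least 7 of 8 libraries numbered 7 of 48, against 23.5% of all regions, and in at least 6 of 8 libraries 13 of 48, against 30.5%. Members called in 1 library numbered 14 of 48, against 31.9% of all regions.

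Inside TP63, the highest mean percentile over the libraries that called a region belonged to number 19 (chr3:189551725-189552251), 44.5 kb past the short start. It was called in 7 of 8 libraries. Its fold was 12.4 and 11.6 in KOSC-2 after 8 Gy and 10.9 and 13.0 at 0 Gy, against 11.5 in HSC-3 after 8 Gy (replicate 2) and 8.85 and 7.56 at 0 Gy. The HSC-3 library without a call was 8 Gy replicate 1, which has the shortest list, and summits agreed within 45 bp.

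Between the promoters, region 8 (chr3:189428340-189428998), 79.5 kb past the long start, was also called in 7 of 8 libraries. Its fold was 10.9 and 15.0 in KOSC-2 after 8 Gy and 14.7 and 10.3 at 0 Gy, against 10.3 in HSC-3 after 8 Gy (replicate 2) and 8.29 and 13.7 at 0 Gy. The lines overlapped, and the missing library was again HSC-3 8 Gy replicate 1. Over the KOSC-2 libraries region 19 had a mean percentile of 85.2 and region 8 had 79.6. Over the HSC-3 libraries that called them, region 19 had 65.2 and region 8 had 69.9, so their order differed between the lines. Region 18 (chr3:189542302-189542990), 35.2 kb past the short start, and region 24 (chr3:189626423-189626885), 11.6 kb past the gene end, had the same pattern of calls at lower strength, with mean percentiles of 46.5 and 40.8. Exon boundaries of hg19 were not used here, so no region is assigned to an intron or an exon.

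By zone, KOSC-2 lists together held more member regions than HSC-3 lists in each TP63 zone given here. They also held more peaks in all, and the part of list length in the counts was not tested. Upstream of the long promoter, KOSC-2 libraries called 3 to 4 of 4 regions and HSC-3 libraries 1 to 2 (2 in each long list), and these ranges, which were not tested, did not overlap. Between the promoters the counts were 2 to 5 of 7 in KOSC-2 and 0 to 3 in HSC-3, or 2 and 3 in the long HSC-3 lists. From the short promoter to the gene end they were 4 to 5 of 10 in KOSC-2 and 1 to 4 in HSC-3, or 4 in each long list. Past the gene end they were 5 to 7 of 9 in KOSC-2 and 2 to 6 in HSC-3, or 5 and 6 in the long lists. In these last 3 zones the long HSC-3 lists lay within the KOSC-2 range, and the lower HSC-3 counts came from the short lists. A region-free stretch of 57.1 kb covered the last 53.7 kb of the gene.

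**Figure D2:**
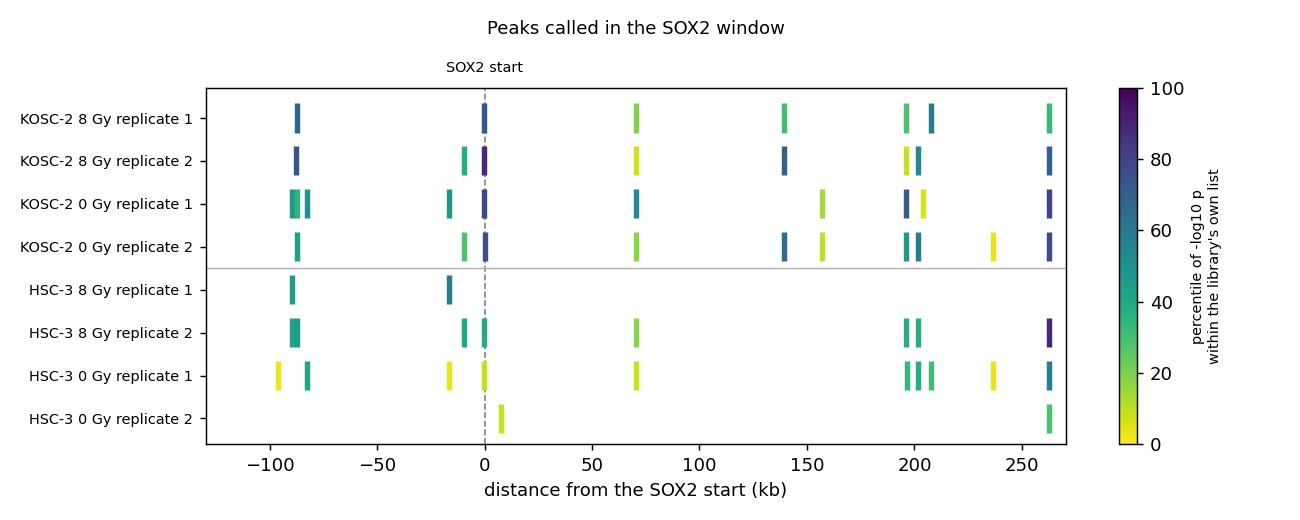
Peaks called in the SOX2 window, with distance from the SOX2 start (kb) on the x axis and 1 row per library, KOSC-2 above HSC-3. Each tick is the midpoint of the strongest peak of a region in that library, coloured by its percentile within that library's list, and the dashed line marks the SOX2 start. The promoter column is filled in all 4 KOSC-2 rows and in 2 HSC-3 rows, and the 2 HSC-3 libraries with short lists have 2 ticks each.

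The surroundings of SOX2 were sparser, with 4.25 regions per 100 kb in the window against 6.89 in the TP63 window and 2.75 over the chromosomes as a whole. Region-free stretches of 65.9 kb, 62.5 kb and 68.1 kb lay between regions 4 and 5, 8 and 9, and 9 and 10. The region of highest mean percentile over all libraries that called it was number 17 (chr3:181691900-181692434), 262 kb past the SOX2 start, which was called in 7 of 8 libraries. Its fold was 6.97 and 11.5 in KOSC-2 after 8 Gy and 11.3 and 12.6 at 0 Gy, against 15.0 in HSC-3 after 8 Gy (replicate 2) and 9.95 and 6.52 at 0 Gy. Both the highest and the lowest of these values were in HSC-3.

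The order depended on the line. In KOSC-2 the promoter region had a mean percentile of 78.7 and region 17 had 64.5, while in HSC-3 the promoter region had 23.6 and region 17 had 58.3. Region 10 (chr3:181568762-181569272), 139 kb past the start, had 54.9 over the KOSC-2 libraries that called it. Region 10 was called in 3 of 4 KOSC-2 libraries, all but 0 Gy replicate 1, and in 0 of 4 HSC-3 libraries. Its fold was 6.04 and 9.91 in KOSC-2 after 8 Gy and 9.45 at 0 Gy. The exact two-sided permutation p for its calls was 0.143, adjusted 1.

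SOX2 regions 9 (chr3:181500008-181500708) and 12 (chr3:181625460-181626248) shared the pattern of calls of the promoter, with 4 of 4 KOSC-2 libraries and both long HSC-3 lists. Over all libraries that called them they were weaker, with mean percentiles of 20.3 and 37.2 against 60.3 for the promoter. For region 12 this order held in KOSC-2 but not in HSC-3, where its mean percentile was above that of the promoter. Region 12 ranked higher than the promoter in HSC-3 at 0 Gy (replicate 1) and slightly lower after 8 Gy (replicate 2). Region 9 ranked below the promoter in every library that called it. Upstream of the promoter KOSC-2 libraries called 1 to 4 of 6 regions and HSC-3 libraries 0 to 3 (3 in each long list). Downstream KOSC-2 libraries called 5 to 7 of 10 and HSC-3 libraries 0 to 6, or 4 and 6 in the long lists and 0 and 2 in the short lists. In both zones the lines overlapped.

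**Figure D3:**
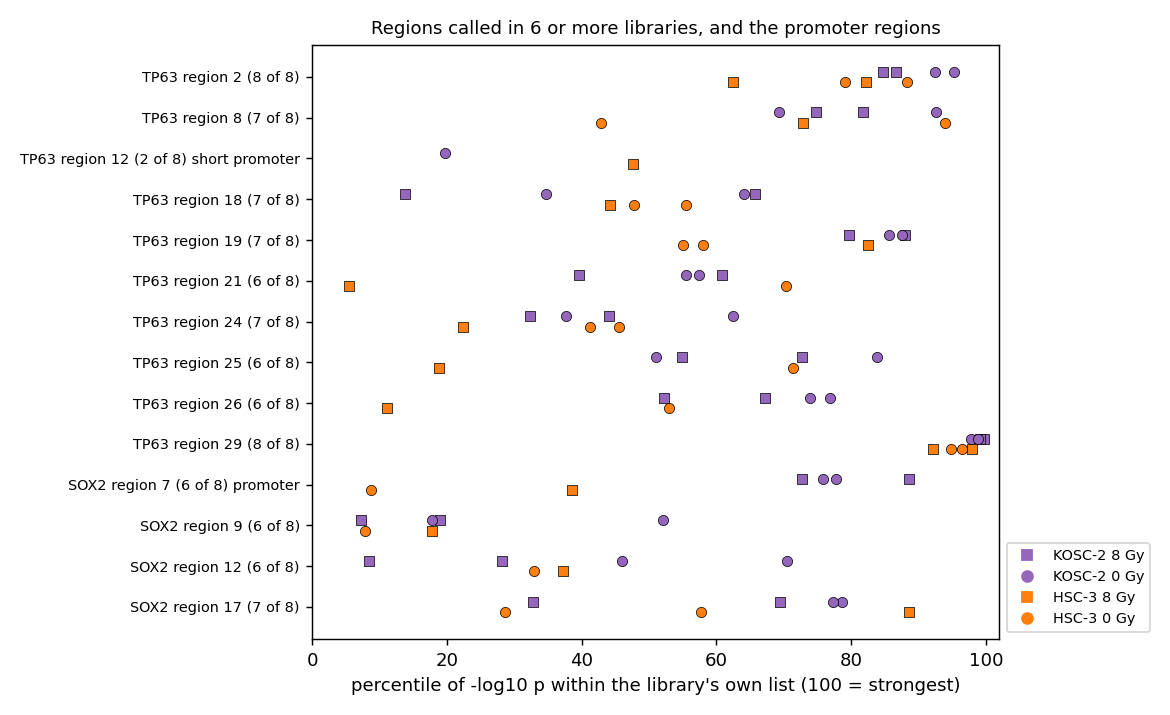
Percentile of the peak within its own list (x axis, 100 is the strongest) in each library for the 13 regions called in at least 6 libraries and the region at the short TP63 promoter, KOSC-2 in purple and HSC-3 in orange, 8 Gy as squares and 0 Gy as circles. Region 29 lies at 92.1 to 99.7 in all 8 libraries, and the SOX2 promoter region at 72.7 to 88.5 in KOSC-2 and at 38.5 and 8.64 in HSC-3.

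The lines were compared first by the regions each held throughout. A region called in 4 of 4 libraries of a line and 0 of 4 of the other was found in neither window: 0 of 48 were KOSC-2-only, where 2.07% of all regions were, and 0 of 48 were HSC-3-only, where 0.3% were. Members held by all 4 KOSC-2 lists, where 31.8% of all regions were, numbered 16, and each of them was also in at least 1 list of HSC-3, against 93.5% of such regions over all chromosomes. Members held by all 4 HSC-3 lists, where 18.1% of all regions were, numbered 2. In both long HSC-3 lists 12 of these 16 were called, against 82.7% over all chromosomes. Of members called in any library, 13 were called in KOSC-2 alone, where 32% of all regions were, and 7 in HSC-3 alone, where 16.2% were.

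TP63 region 30 (chr3:189662220-189662614), singled out after its values were seen, was the only member called in both long HSC-3 lists and in 0 KOSC-2 libraries, a pattern of 2.99% of all regions, so 1 of 48 was near the background. Its fold was 4.40 in HSC-3 after 8 Gy (replicate 2) and 7.03 at 0 Gy (replicate 1), at percentiles of 1.81 and 46.6. Over all regions, exact permutation tests of the calls by line passed adjustment for 0 of 80588. There were 1913 at an unadjusted p under 0.05, and 0 of those 1913 were members. With a smallest possible p of 0.0286 and so few regions at it, none could pass this adjustment.

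The second comparison of lines took the share of each list that fell in a window. This scales the count by list length, but values still differed when the lists themselves were shortened. The smallest possible exact permutation p was 0.0286 for lines and 0.0556 for doses. After adjustment over the 8 tests, no comparison of windows could therefore reach 0.05. The TP63 window held 19 and 16 peaks in KOSC-2 after 8 Gy and 17 and 15 at 0 Gy, against 4 and 14 in HSC-3 after 8 Gy and 15 and 7 at 0 Gy. Per 10000 peaks that was 3.80 ± 0.478 in KOSC-2 and 2.90 ± 0.785 in HSC-3 (SD, n = 4 each). The difference of 0.902 had an exact two-sided permutation p of 0.0571, and 0.457 after Benjamini-Hochberg adjustment over 8 tests, and the values overlapped, since the KOSC-2 minimum was 3.30 and the HSC-3 maximum 3.58. The difference was 0.529 without the HSC-3 library 8 Gy replicate 1, and 0.385 without both short HSC-3 lists (exact permutation p = 0.333, adjusted 0.800).

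The SOX2 window held 7 and 8 peaks in KOSC-2 after 8 Gy and 10 and 10 at 0 Gy, against 2 and 8 in HSC-3 after 8 Gy and 10 and 2 at 0 Gy. Per 10000 peaks that was 2.01 ± 0.532 in KOSC-2 and 1.495 ± 0.754 in HSC-3 (SD, n = 4 each). The difference of 0.518 did not pass (exact two-sided permutation p = 0.286, adjusted 0.508), and it moved both ways with the setting. It was 1.44 with lists of equal length and 1.38 in the upper part of each list, each with an exact permutation p of 0.0286 (the smallest possible) and 0.114 after adjustment, but -0.107 without the short HSC-3 lists. With 1 library left out it ran over 0.304 (without HSC-3 0 Gy replicate 2) to 0.815 (without HSC-3 0 Gy replicate 1). Measured as covered bases per Mb covered by the list, the TP63 window held 313 ± 37.6 bp in KOSC-2 and 272 ± 84.3 bp in HSC-3, and the SOX2 window 172 ± 36.4 bp and 116 ± 68.1 bp in the same lines (SD, n = 4 each). Neither difference passed (exact permutation p = 0.514 and 0.229, adjusted 0.514 and 0.508). The TP63 difference of 40.8 bp was 22.3 bp without the KOSC-2 library 0 Gy replicate 1, -0.0279 bp without the HSC-3 library 8 Gy replicate 1 and 7.11 bp without both short HSC-3 lists. The SOX2 difference of 55.9 bp was 124 bp with lists of equal length and 126 bp in the upper part of each list, each with an exact permutation p of 0.0286 and 0.114 after adjustment. It was 35.7 bp without HSC-3 8 Gy replicate 1, 36.8 bp without HSC-3 0 Gy replicate 2 and -3.07 bp without both.

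**Figure D4:**
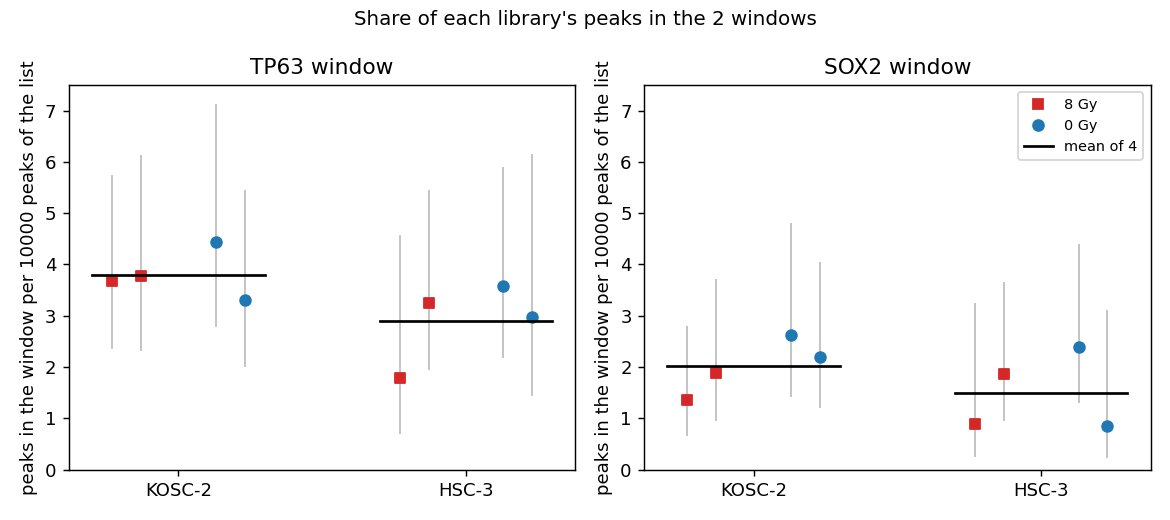
Peaks in each window per 10000 peaks of the list (y axis) for each library, with KOSC-2 left of HSC-3, 8 Gy as red squares, 0 Gy as blue circles, the mean of the 4 libraries as a black line and 95% Wilson intervals in grey, which cover counting error only. The intervals of all libraries overlap, and the HSC-3 libraries with short lists give the lowest 2 values in each window.

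The doses were compared within each line, with 36 assignments and a smallest possible p of 0.0556. Per 10000 peaks, the TP63 window held 3.72 in KOSC-2 after 8 Gy and 3.87 at 0 Gy, and 2.51 in HSC-3 after 8 Gy and 3.28 at 0 Gy (means of 2 libraries). The mean difference over the lines was -0.457 (exact permutation p = 0.444, adjusted 0.508). With 1 library left out it ran over -0.825 (without HSC-3 8 Gy replicate 2) to -0.0890 (without HSC-3 8 Gy replicate 1). It was -0.238 without both short HSC-3 lists and -0.9998 with lists of equal length (exact permutation p = 0.167, adjusted 0.333). The SOX2 window held 1.62 in KOSC-2 after 8 Gy and 2.41 at 0 Gy, and 1.37 in HSC-3 after 8 Gy and 1.62 at 0 Gy, a mean difference of -0.516 (exact permutation p = 0.333, adjusted 0.508). With 1 library left out the SOX2 difference ran over -0.900 (without HSC-3 0 Gy replicate 2) to -0.133 (without HSC-3 0 Gy replicate 1), and it was -0.658 without both short HSC-3 lists. The difference in the SOX2 window was 0.136 when the count was limited to the upper part of each list, past its 50th percentile.

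As covered bases per Mb, the mean difference between 8 and 0 Gy was -69.2 bp in the TP63 window (exact permutation p = 0.167, adjusted 0.508) and -28.3 bp in the SOX2 window (exact permutation p = 0.444, adjusted 0.508). The TP63 difference was -35.7 bp without HSC-3 8 Gy replicate 1, -35.9 bp without both short HSC-3 lists and -109 bp with lists of equal length (exact permutation p = 0.0556, the smallest possible, adjusted 0.148). The SOX2 difference changed sign when the HSC-3 library 8 Gy replicate 1 was left out (1.80 bp) or the HSC-3 library 0 Gy replicate 1 (0.550 bp). The effects of dose in the lines were not told apart (exact permutation p of 0.5 to 0.556 over the 4 measures).

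No member passed a test of calls by dose, and 3 of 48 had calls that split by dose within a line. TP63 region 10 (chr3:189474474-189474938), between the promoters, was called in both KOSC-2 libraries after 8 Gy and neither at 0 Gy, a pattern of 3.51% of all regions. Its fold was 5.38 and 5.26 in KOSC-2 after 8 Gy, at percentiles of 8.03 and 3.45, and it was also called in HSC-3 at 0 Gy (replicate 1, fold 6.63). SOX2 region 11 (chr3:181586445-181586791) was called in both KOSC-2 libraries at 0 Gy and neither after 8 Gy, a pattern of 0.87% of all regions. Its fold at 0 Gy was 4.98 and 5.66, at percentiles of 13.7 and 9.38.

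SOX2 region 2 (chr3:181340120-181340502), at -89.4 kb relative to the start, was called in both HSC-3 libraries after 8 Gy and neither at 0 Gy, a pattern of 0.68% of all regions. Its fold there was 6.38 and 6.45, from 18 and 19 reads and at percentiles of 45.6 and 41.9, and the same region was called in KOSC-2 at 0 Gy (replicate 1, fold 6.20). No member was called in both HSC-3 libraries at 0 Gy and neither after 8 Gy, a pattern of 0.957% of all regions. With lists of equal length, none of these 3 regions kept its pattern. SOX2 region 3 was then gained in KOSC-2, where 2.13% of 42673 regions were, and TP63 region 18 was lost in HSC-3, where 2.3% were. No member was lost in KOSC-2, where 1.7% were, or gained in HSC-3, where 1.81% were. In equal lists 2 TP63 members were called in 8 of 8 libraries, where 22.7% of regions were, and 0 members were HSC-3-only, where 1.19% were. Without the short HSC-3 lists, which leaves 1 HSC-3 library per dose, 4 TP63 and 3 SOX2 members were called in the HSC-3 library after 8 Gy and not in that at 0 Gy, where 12.9% of all regions were, and 5 TP63 and 5 SOX2 members the other way round, where 11.7% were. HSC-3-only was then 1 member, where 3.09% of all regions were. Each of the 3 regions rests on 2 libraries per dose, and 0 of 80588 regions passed the test of calls by dose, with 0 at an unadjusted p under 0.05, which this design cannot reach.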

How the data were processed

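ATAC-seq peak lists of 8 libraries were analysed, 2 per line and dose, grouped by the labels. Build hg19 and the tools MACS2 2.2.6, SAMtools 1.9, Bowtie2 2.3.4.2, deepTools and FastQC 0.11.7 are listed, per the submitters' processing notes, without roles or parameters. Duplicate removal and any Tn5 shift: not given in the sources used here. For each peak the authors deposited a score, a fold ratio over the background around the peak, and −log10 p and −log10 q values. Fold and p together gave a whole number of reads at the summit for 100% of peaks (within 0.0001) and the background in 10 kb.

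Each list was called per library. Lines were compared by exact permutation of 70 assignments. The starts of TP63, SOX2 and marker genes are those of the well-known hg19 RefSeq models, not of a file. Against GRCh38.p14 the spacing from SOX2 to the TP63 end differed by 5 bp and that from the long start to the TP63 end by 35 bp. That table starts TP63 34.7 kb further upstream, still inside the region-free stretch. The short start could not be checked this way. Named singly are promoter regions, regions in 8 of 8 libraries, line-only and dose-changed regions, and the 3 of highest mean percentile per window. The other regions given by number were chosen after their values were seen. Members and lists were chosen with earlier results of these data known.

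Alternatives were equal list lengths, a minimum −log10 q of 5, summits inside the window, the upper 50% of each list, 50% coverage of a region, leaving out each library and a replicate block. Functions were tested on simulated lists. Software was scipy 1.17.1 and pandas 2.3.3 with numpy 2.4.6 under Python 3.11.15, and figures came from matplotlib 3.10.9.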

Additional observations from a re-analysis of the deposited data

How the results depend on the processing

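The 8 comparisons of lines or doses by window (peaks per 10000 peaks, or covered bp per Mb) were recomputed under 14 settings each. Of these 112 values 105 kept their direction and 7 changed it. The replicate block changes only the permutations, so its values equal the main ones by construction. The limit to summits inside the window also left every value as it was. The lowest adjusted p was 0.114 (exact permutation). No value could pass the adjusted threshold of 0.05. The exact permutation p was at best 0.0286 for lines and 0.0556 for doses, before adjustment over 8 tests. In the upper part of each list, past its 50th percentile, the dose difference in the SOX2 window was 0.136 peaks and 7.68 bp. Without the 2 HSC-3 libraries with short lists, the line difference in the SOX2 window was -0.107 peaks and -3.07 bp. With 1 library left out at a time, the line difference in covered bp of the TP63 window was -0.0279 to 59.4, and the dose difference in covered bp of the SOX2 window was -58.4 to 1.80, with 0.550 without HSC-3 0 Gy replicate 1. The cause was not tested.

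Counts of regions by class are small and moved with the settings. Shares of all regions are not given for 50% coverage, the upper part of each list or most settings with 1 library left out. Leaving out a library also loosens the classes that use it for all regions. Those counts, here and below, therefore cannot be set against the background. In the TP63 window, regions in 8 of 8 libraries numbered 1 with 50% coverage and 8 without the short HSC-3 lists. Without these lists, with 1 HSC-3 library per dose, HSC-3-only regions numbered 1 (3.09% of all regions), regions gained in HSC-3 after 8 Gy 4 (12.9%) and lost 5 (11.7%). Regions gained in KOSC-2 numbered 0 with equal lists and 0 above the 50th percentile, and regions lost in HSC-3 1 with equal lists. In the SOX2 window, regions in all libraries numbered 4 without the short HSC-3 lists, those gained in HSC-3 3 and those lost 5. KOSC-2-only regions numbered 1, regions gained in KOSC-2 1, lost in KOSC-2 0 and gained in HSC-3 0, each with equal lists and likewise above the 50th percentile. With 50% coverage, regions lost in KOSC-2 numbered 2.

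With 1 library left out at a time, the TP63 counts ran over 2 to 6 for all libraries, 0 to 1 for KOSC-2-only, 1 to 4 and 0 to 4 for gained and lost in KOSC-2, and 0 to 4 for each in HSC-3. The SOX2 counts ran over 0 to 1, 0 to 1, 0 to 1 and 1 to 5 for the same classes, and 1 to 3 and 0 to 4 for gained and lost in HSC-3. With a replicate block the line difference of the TP63 window was again 0.902 peaks (exact permutation p = 0.125, adjusted 0.5). That p is the smallest the block allows, so no result could pass under it either. Deviations by replicate number correlated over 0.1 in 1 of 6 pairs of groups, the doses of KOSC-2 (r = 0.258 across regions). Between the doses of HSC-3 r was -0.0862, and between the lines it was -0.136 to 0.0346. A pairing by number is thus not settled for KOSC-2, and the main dose tests used none. Depth and enrichment both differed between the libraries, and the part of each in the calls was not tested. A summit under 5 to 9 reads, depending on the library, was not detectable, and a site with higher background needed more.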
